A study of Homo sapiens with 3 samples.

Results

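Splicing factors and spliceosome proteins were taken by name: every gene listed as protein-coding whose symbol belongs to the SRSF, HNRNP, SF3A or SF3B, SNRP, PRPF or numbered RBM series. The rule found 111 genes among the 58735 listed, of which 19951 are protein-coding. They comprise 12 SRSF, 27 HNRNP, 9 SF3, 12 SNRP, 13 PRPF and 38 RBM genes, and 105 of them had at least 10 counts summed over the libraries and were tested. RNA-seq was available for 3 libraries of DU145, an epithelial line from a human prostate carcinoma. The study asked what lowering PD-L1, the immune checkpoint ligand encoded by CD274, does to the transcripts of castration-resistant prostate cancer cells, including how they are spliced. The control is 1 library. The study's cell culture methods use the empty pLKO.1 lentiviral vector as control, but its RNA-seq methods name the control cells only as DU145. Whether the sequenced control was infected and selected is therefore unclear. By the methods, the PD-L1 knockdown-labelled libraries 1 and 2 come from puromycin-selected cells carrying a pLKO.1 hairpin against PD-L1. Each library stands for 1 cell population, no library has a replicate culture, and the methods list 1 hairpin sequence for the 2 hairpins. The labels name DMEM as the medium and the methods EMEM, the series text names BCPAP cells, and the heading of the control's counts names RBM45.

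Introns are removed from pre-mRNA by the spliceosome, in which small nuclear ribonucleoproteins (snRNPs) assemble on each intron in turn: U1 at the start of the intron, U2 with the SF3a and SF3b complexes at the branch point, and then the tri-snRNP that carries U4, U6 and U5. Each of these particles holds a ring of Sm proteins. Which splice sites are used also depends on regulators that bind the RNA, chiefly SR proteins, which mostly favour nearby exons, and hnRNP proteins, which often oppose them.

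The libraries held 14733088, 14738298 and 15786457 counts, in the order control, knockdown-labelled library 1, knockdown-labelled library 2, and values are given in this order throughout. The members took 1.66%, 1.69% and 1.63% of these counts. CD274 had 204, 213 and 224 counts in the 3 libraries and a fitted log2 fold change of 0.05 (SE 0.20, adjusted p = 0.947 in edgeR's quasi-likelihood test, Benjamini-Hochberg adjusted). It was thus not below the control in either library, and all groups are named by their labels. The 5 epithelial markers (KRT8, KRT18, KRT19, EPCAM and CDH1) had summed levels of 514, 563 and 576 FPKM, a level scaled by gene length and library depth. Among luminal prostate markers, KLK3, KLK2, TMPRSS2 and FOLH1 were at 0 counts in each library. The 5 leukocyte markers summed to between 0.304 and 0.687 FPKM and the 5 endothelial and stromal markers to between 0.710 and 1.02 FPKM. In bulk RNA, fewer cells with a transcript and less of it per cell cannot be told apart. The control has no replicate, so the p-values rest only on the spread between the 2 knockdown-labelled libraries, which were made with different hairpins. In edgeR's main fit this spread was taken as a trend over all genes, not gene by gene. A gene whose 2 knockdown-labelled libraries disagree was thus not given a wider error for it.

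Most members differed little. Of the 95 members with a mean of at least 100 counts, 81 (85.3%) had a log2 fold change, knockdown-labelled libraries against control, within 0.25 of 0. The share was 75.0% of all genes with such a mean. Members were counted more deeply, so these shares are not at equal depth. The median of the mean counts was 1322 over tested members and 151 over all tested genes. The median log2 fold change was 0.01 over the 105 tested members and 0.00 over all 19849 tested genes. At a Benjamini-Hochberg adjusted p under 0.05 in edgeR's quasi-likelihood test, taken over all tested genes, 2 members rose, SRSF9 and SF3A2, against a background of 0.247% of tested genes. No member fell (0 of 105, background 0.106%). At an unadjusted p under 0.05 in the same test, 6 members were higher (background 6.82%) and 4 were lower (background 4.92%). These shares are close to those of all genes. The 6 higher members were SF3A2, SRSF9, SF3B5, RBM42, SNRPB and HNRNPAB, and the 4 lower were RBM27, SRSF1, RBM26 and SRSF2. DESeq2's Wald test called 0 members at an adjusted p under 0.05, beside 6 of all 19849 tested genes. It gave 2 members higher and 1 lower at an unadjusted p under 0.05, beside 455 of all tested genes in both directions together. After removal of the trends that ran with transcript length and GC, edgeR's test at that unadjusted threshold gave 10 higher and 1 lower. These are 9.52% and 0.952% of members, beside 3.91% and 2.39% of all tested genes. The 10 were SRSF9, HNRNPA0, HNRNPD, HNRNPR, HNRNPU, SNRPF, SNRPA1, HNRNPA2B1, SF3A2 and SRSF4, and the 1 was SRSF1. No member passed the adjusted threshold in that fit, and 5 of all tested genes did.

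**Figure D1:**
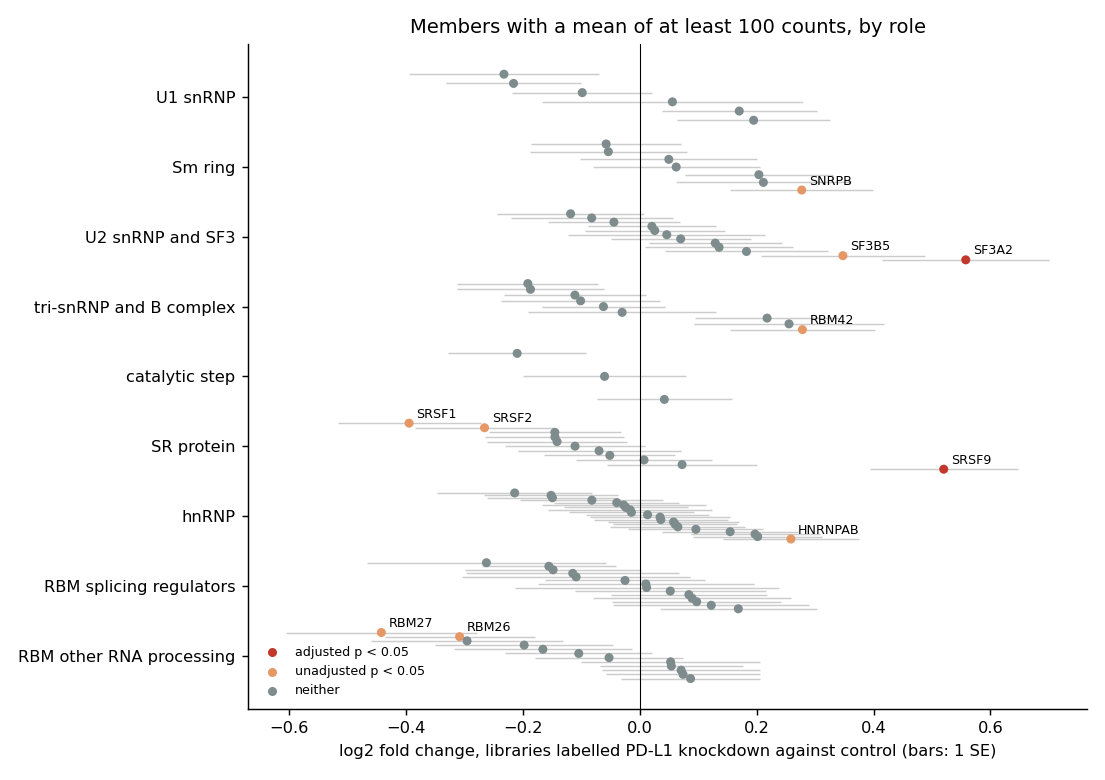
Log2 fold change (horizontal axis) of each member with a mean of at least 100 counts, knockdown-labelled libraries against control, grouped by role (vertical axis), with bars of 1 SE. SRSF9 at 0.52 and SF3A2 at 0.56 stand apart from their groups, and most other points lie within 0.25 of 0.

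Among the SR proteins, SRSF9 was higher and SRSF1 lower in both knockdown-labelled libraries. SRSF9 (ENSG00000111786, chromosome 12, 120461668 to 120469793, minus strand, GRCh38), a short SR protein active in splice site choice, had 1317, 1694 and 2221 counts. Its ratio to the control, scaled by library size, was 1.29 (95% counting interval 1.20 to 1.39) and 1.58 (1.47 to 1.69). Both libraries lay above the control by more than counting error, and the second lay above the first by a ratio of 1.22 (1.14 to 1.30). The fitted log2 fold change was 0.52 (SE 0.126, edgeR adjusted p = 0.0207). SRSF1 (ENSG00000136450, chromosome 17, 58003360 to 58007346, minus strand), the founding SR protein and a close relative of SRSF9, had 1929, 1605 and 1417 counts. It was lowest in the knockdown-labelled library 2, with ratios to the control of 0.836 (0.782 to 0.893) and 0.686 (0.640 to 0.735). Its log2 fold change of -0.39 (SE 0.122) did not pass the adjusted threshold (edgeR adjusted p = 0.124).

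The contrast between SRSF9 and SRSF1 can be read within a library, where depth plays no part. Per kilobase of gene, SRSF9 stood at 0.609 (0.567 to 0.654) of SRSF1 in the control, at 0.942 (0.879 to 1.01) in the knockdown-labelled library 1 and at 1.40 (1.31 to 1.50) in the knockdown-labelled library 2. The 3 intervals do not overlap. In FPKM, SRSF1 was the fourth and SRSF9 the seventh of the 12 SRSF genes in the control, and these places were exchanged in the knockdown-labelled library 2. As a share of the summed FPKM of all 12 SRSF genes, SRSF9 made up 6.47%, 8.67% and 11.1%, and SRSF1 10.6%, 9.21% and 7.97%. The 2 genes were chosen for this display because SRSF9 is among the 5 highest and SRSF1 among the 5 lowest fold changes, so the ratio is a description with no test of its own.

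The pair is shown over the 120 coding bases in which they are most alike when aligned without gaps. SRSF1 is given from coding base 88 to 207 (chr17:58006515-58007050, minus strand, 2 exons) and SRSF9 from coding base 82 to 201 (chr12:120465775-120469528, minus strand, 2 exons), from the GENCODE transcripts of GRCh38. Capitals in SRSF9 mark bases that differ from SRSF1.
SRSF1: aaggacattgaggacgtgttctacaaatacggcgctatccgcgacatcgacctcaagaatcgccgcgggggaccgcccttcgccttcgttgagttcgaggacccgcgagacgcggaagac
SRSF9: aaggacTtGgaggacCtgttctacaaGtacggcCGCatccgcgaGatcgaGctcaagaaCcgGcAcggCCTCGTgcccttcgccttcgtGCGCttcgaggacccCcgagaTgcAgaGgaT
Even here 27 of 120 bases differed (77.5% equal) and the longest equal run was 15 bases. Over all its transcripts SRSF9 shared 1.98% of its 31-base words with any other gene. The exons of SRSF9 overlap those of GATC, which lies on the opposite strand, over 46.2% of their bases, and GATC had 546, 580 and 500 counts. Whether counting used the strand is not given in the sources used here, so reads from the overlap could go to either gene. Of the exonic bases of SRSF1, 56.6% are also annotated to AC015813.2, which was at 0 counts in each library.

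**Figure D2:**
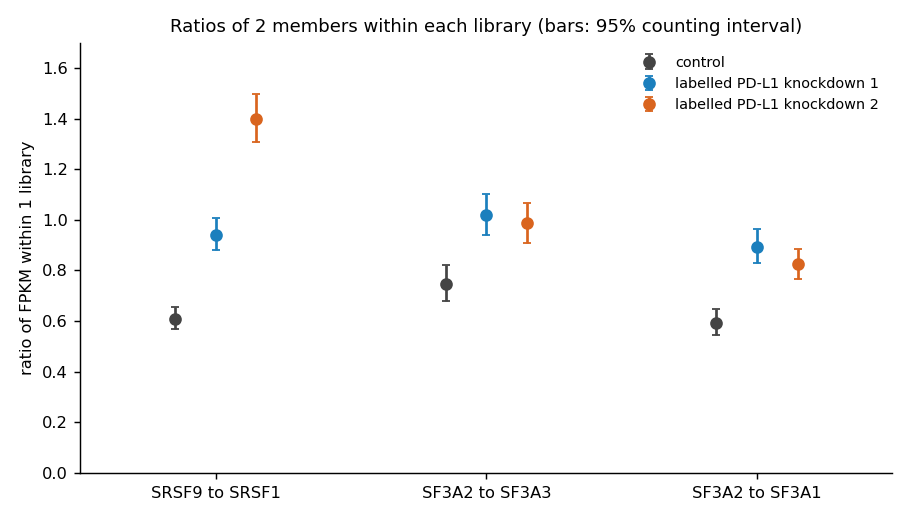
Ratio of the FPKM of 2 genes within each library (vertical axis), for SRSF9 to SRSF1, SF3A2 to SF3A3 and SF3A2 to SF3A1, with 95% counting intervals. SRSF9 to SRSF1 goes from 0.609 in the control to 1.40 in the knockdown-labelled library 2, and both SF3A2 ratios are lowest in the control.

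The other SRSF genes lay closer to the control. SRSF2 (SC35), an SR protein of nuclear speckles, had 2344, 2024 and 1999 counts, with ratios to the control of 0.867 (0.817 to 0.921) and 0.796 (0.750 to 0.846). Both libraries lay below the control, and the fitted log2 fold change was -0.27 (SE 0.119, edgeR adjusted p = 0.355). On 36.7% of its exonic bases SRSF2 overlaps MFSD11 on the opposite strand, which had 348, 366 and 367 counts. SRSF6, the highest of the family, had 4526, 4194 and 4253 counts, or 66.4, 61.8 and 58.6 FPKM. SRSF3, which regulates its own transcript through a poison exon, had 5170, 5139 and 5158 counts. The log2 fold change was -0.15 for SRSF6 and -0.05 for SRSF3, neither at an unadjusted p under 0.05 in edgeR's test. SRSF4, SRSF5, SRSF7, SRSF8, SRSF10 and SRSF11 had log2 fold changes from -0.15 (SRSF10) to 0.07 (SRSF4). None of these 6 passed at an unadjusted p under 0.05 in edgeR's test. SRSF12 was the lowest of the family, with 79, 67 and 92 counts, or 1.17, 0.997 and 1.28 FPKM. Over the 12 genes, 9 fold changes were negative and 3 positive, and the median was -0.09. With the length and GC trends removed, the fold changes of SRSF3, SRSF6, SRSF7, SRSF8, SRSF11 and SRSF12 became positive, while SRSF9 stayed at 0.56 (SE 0.127) and SRSF1 at -0.27. The call of SRSF9 was lost in that fit (edgeR adjusted p = 0.431) and in DESeq2's Wald test (adjusted p = 0.99983), in which the fold changes were 0.56 and 0.52.

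**Figure D3:**
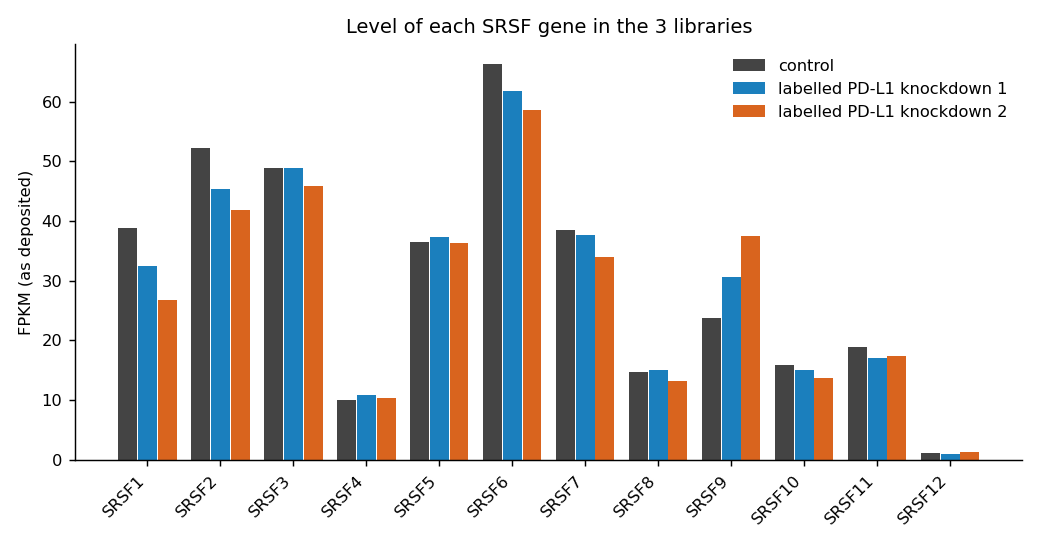
FPKM as deposited (vertical axis, from 0) of the 12 SRSF genes (horizontal axis) in each of the 3 libraries, 1 bar per library. SRSF9 climbs from 23.7 to 37.5 FPKM while SRSF1 goes from 38.9 to 26.9, and the other bars change less.

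In the U2 snRNP and its SF3 complexes, SF3A2 had the highest log2 fold change, and the other SF3a subunits lay closer to the control. SF3A2 (ENSG00000104897, chromosome 19, 2236504 to 2248679, plus strand) encodes a subunit of SF3a, which joins U2 before the branch point is engaged. It had 673, 1016 and 1029 counts, and ratios to the control of 1.52 (1.37 to 1.67) and 1.43 (1.29 to 1.58). The knockdown-labelled libraries both lay above the control and did not differ from each other beyond counting error (ratio 0.942, 0.863 to 1.03). The log2 fold change was 0.56 (SE 0.143, edgeR adjusted p = 0.0361). The other SF3a subunits are SF3A1, with 2290, 2297 and 2521 counts, with a log2 fold change of 0.03, and SF3A3, with 1361, 1509 and 1579 counts and 0.14. SF3A3 also lay above the control in both libraries, with ratios of 1.11 (1.03 to 1.20) and 1.08 (1.01 to 1.17). SF3A2 thus stood at 0.748, 1.02 and 0.986 of SF3A3 in FPKM, and at 0.593, 0.893 and 0.824 of SF3A1. On both scales the control had the lowest ratio, with an interval below those of the other libraries.

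For SF3A2 a neighbour and the base composition moved with the result. Its 5' exon lies within PLEKHJ1 on the opposite strand, and 12.7% of the exonic bases of SF3A2 are shared. PLEKHJ1 had 659, 888 and 1222 counts and rose, by 0.63 on the log2 scale (SE 0.143, edgeR adjusted p = 0.00952). Its ratios to the control were 1.35 (1.22 to 1.50) and 1.73 (1.57 to 1.91), beside 1.52 and 1.43 for SF3A2. The longest transcript of SF3A2 has 66.6% GC, the highest among well-counted members, and with the length and GC trends removed its log2 fold change was 0.32 (SE 0.124, edgeR adjusted p = 0.758). The call also ended in DESeq2's Wald test (adjusted p = 0.99983) and when genes with at least 1 count were tested (edgeR adjusted p = 0.0668). The part of the overlap and of GC content in the rise was not tested.

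The SF3b subunits, which hold the branch point, had log2 fold changes from -0.08 (SF3B6) to 0.13 (SF3B2), apart from SF3B5. SF3B2 lay above the control in both libraries, with ratios of 1.08 (1.04 to 1.13) and 1.10 (1.06 to 1.15). SF3B4 was above it in the knockdown-labelled library 1 alone (1.11, 1.04 to 1.17). SF3B6 was below it in the knockdown-labelled library 2 alone (0.873, 0.794 to 0.960). SF3B5, a small subunit, had 760, 949 and 1050 counts and ratios of 1.25 (1.14 to 1.38) and 1.29 (1.17 to 1.42). Both libraries lay above the control, with a log2 fold change of 0.35 (SE 0.141, edgeR adjusted p = 0.290), or 0.13 with the length and GC trends removed. SF3B1, the scaffold subunit that is mutated in several blood cancers, had 4455, 4383 and 4538 counts, with a log2 fold change of -0.04. SF3B3 was the most counted of them, with 7820, 7913 and 8477 counts and 0.02. In FPKM, SF3B5 stood at 2.26, 2.86 and 3.06 times SF3B1. The U2 proteins SNRPA1 and SNRPB2 had log2 fold changes of 0.18 and 0.05, and RBM17, a U2-associated regulator, had the lowest of the group at -0.12. SNRPA1 lay above the control in both libraries, with ratios of 1.13 (1.03 to 1.24) and 1.14 (1.04 to 1.25). With the length and GC trends removed it stood at 0.30 (SE 0.113, edgeR adjusted p = 0.758), beside 0.32 for SF3A2. Of the 12 genes, 9 fold changes were positive, with a median of 0.06. At an unadjusted p under 0.05 in edgeR's test 2 were higher (background 6.82%).

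Of the 8 Sm ring genes, 6 had a positive log2 fold change, and none passed the adjusted threshold. SNRPB, which encodes SmB, had 1795, 2169 and 2325 counts, with ratios of 1.21 (1.14 to 1.29) and 1.21 (1.14 to 1.29). Its log2 fold change was 0.28 (SE 0.122, edgeR adjusted p = 0.345), and 0.09 with the length and GC trends removed. It was also the most abundant Sm gene, at 94.6, 115 and 115 FPKM. SNRPG had 772, 667 and 1007 counts, so that it was below the control in the knockdown-labelled library 1 (ratio 0.868, 0.781 to 0.964) and above it in the other (1.22, 1.11 to 1.34). The gap between those 2 libraries, a ratio of 1.40 (1.27 to 1.55), was the highest of any member with at least 100 counts on average. SNRPD1 was the lowest of the well-counted group, with 1344, 1366 and 1297 counts, with a log2 fold change of -0.06. The median over the group was 0.13.

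U1, tri-snRNP and catalytic proteins showed no member past the adjusted threshold. In the U1 group, SNRPC (U1-C) had 1180, 1399 and 1388 counts, with a log2 fold change of 0.19, and PRPF39, a U1-associated protein, had 513, 456 and 445 counts and -0.23. Among tri-snRNP and B complex proteins, PRPF8, the large protein that cradles the catalytic RNA, was the most abundant at 82.9, 80.3 and 78.9 FPKM. It had 13976, 13487 and 14160 counts, with a log2 fold change of -0.06. RBM42 was the highest of this group, with 1601, 1842 and 2176 counts and ratios of 1.16 (1.08 to 1.24) and 1.27 (1.19 to 1.35). Its log2 fold change of 0.28 (SE 0.124, edgeR adjusted p = 0.351) became -0.01 when the length and GC trends were removed, and its transcript has 65.1% GC. The kinase PRPF4B was the lowest of the group, with 2116, 1926 and 1897 counts and -0.19. In the catalytic group, PRPF19, a ubiquitin ligase of the activated spliceosome, had 3243, 3379 and 3516 counts and 0.04, and RBM8A, a core protein of the exon junction complex, had 2507, 2258 and 2214 counts and -0.21.

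The hnRNP genes were the most abundant members and changed little in the main fit. Their summed level was 1254, 1324 and 1288 FPKM, against 366, 353 and 337 FPKM for the SR proteins. HNRNPA1, which often silences exons, was the highest at 167, 181 and 169 FPKM, with 12628, 13615 and 13562 counts, with a log2 fold change of 0.06. Among the 21 tested genes of the role list, which leaves out HNRNPA1P48, the highest fold change was that of HNRNPAB, with 3396, 4016 and 4380 counts and ratios of 1.19 (1.13 to 1.24) and 1.20 (1.15 to 1.26). Both libraries lay above the control, but the log2 fold change of 0.26 (SE 0.116) gave an edgeR adjusted p of 0.353 and was 0.15 with the length and GC trends removed. HNRNPLL, a regulator of CD45 splicing in lymphocytes, was the lowest, with 1198, 1044 and 1089 counts and -0.21. The median over the 21 tested hnRNP genes was 0.03, with 12 positive and 9 negative. With the length and GC trends removed, some were higher at an unadjusted p under 0.05 in edgeR's test. These were HNRNPA0 (0.31), HNRNPD (0.29), HNRNPR (0.27), HNRNPU (0.21) and HNRNPA2B1 (0.19). None passed the adjusted threshold, and no hnRNP gene was lower at the unadjusted threshold. HNRNPA0 lay above the control in both libraries, with ratios of 1.11 (1.06 to 1.17) and 1.12 (1.06 to 1.17).

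Copies and relatives with shared sequence set a limit on some of these genes. HNRNPA1L2 is an intronless copy of HNRNPA1. Over its whole length HNRNPA1L2 shares 76.4% of its 31-base words with other genes, and it had 78, 88 and 96 counts. HNRNPA1P48, which the files list as protein-coding, shares 58.5% and had 175, 233 and 204 counts, with a log2 fold change of 0.28 (SE 0.208, edgeR adjusted p = 0.635). The 4 HNRNPCL genes, intronless relatives of HNRNPC, were at 0 counts in each library, which allows up to 0.204, 0.204 and 0.190 CPM (3 counts, counting error only), whereas HNRNPC had 10908, 10897 and 11011 counts. SNRPN, a relative of SNRPB that shares exons with SNURF, had 38, 65 and 60 counts, and SNURF had 8, 2 and 4. RBM4 had 285, 288 and 305 counts and RBM4B 309, 315 and 273. Of its 31-base words RBM4 shared 24.6% with other genes, mostly with the read-through RBM14-RBM4 (23.0%), and RBM4B shared 8.03%. Values of these genes are uncertain as far as they share sequence. The handling of reads that match more than 1 gene is not given in the sources used here. RBM12, with 1547, 1496 and 1473 counts, and RBM12B, with 483, 393 and 420, shared no more than 8.47% and 0.234% of their 31-base words with any other gene.

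The RBM genes outside the snRNPs held the lowest fold change of the members with a mean of at least 100 counts, that of RBM27. RBM27 and RBM26 are related proteins tied to the nuclear exosome, which degrades RNA. RBM27 had 528, 403 and 399 counts, with ratios of 0.767 (0.672 to 0.874) and 0.706 (0.618 to 0.805). RBM26 had 1432, 1175 and 1213 counts, with ratios of 0.824 (0.762 to 0.891) and 0.791 (0.732 to 0.855). Both genes lay below the control in both libraries, with log2 fold changes of -0.44 (SE 0.163, edgeR adjusted p = 0.229) and -0.31 (SE 0.128, edgeR adjusted p = 0.308). With the length and GC trends removed these were -0.25 and -0.17. Of the exonic bases of RBM27, 45.4% are shared with AC091959.3, a gene at 0 counts in each library. RBM3, a cold-induced RNA-binding protein, was the most abundant of the genes placed under other RNA processing, at 44.1, 49.1 and 44.8 FPKM, and had the highest log2 fold change there, 0.09. Over the 15 tested genes of that list 10 fold changes were negative, with a median of -0.17.

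The 16 RBM genes placed among splicing regulators ran from RBM41, with 219, 207 and 169 counts, with a log2 fold change of -0.26, to RBM10, with 1004, 1134 and 1197 counts and 0.17, among those with a mean of at least 100 counts. None passed at an unadjusted p under 0.05 in edgeR's test, and 8 were positive and 8 negative. RBM45, the gene named in the heading of the control's counts, had 150, 160 and 152 counts. Its ratios to the control, 1.07 (0.852 to 1.35) and 0.946 (0.750 to 1.19), did not differ from 1 beyond counting error, and the log2 fold change was 0.01 (SE 0.226, edgeR adjusted p = 0.990).

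**Figure D4:**
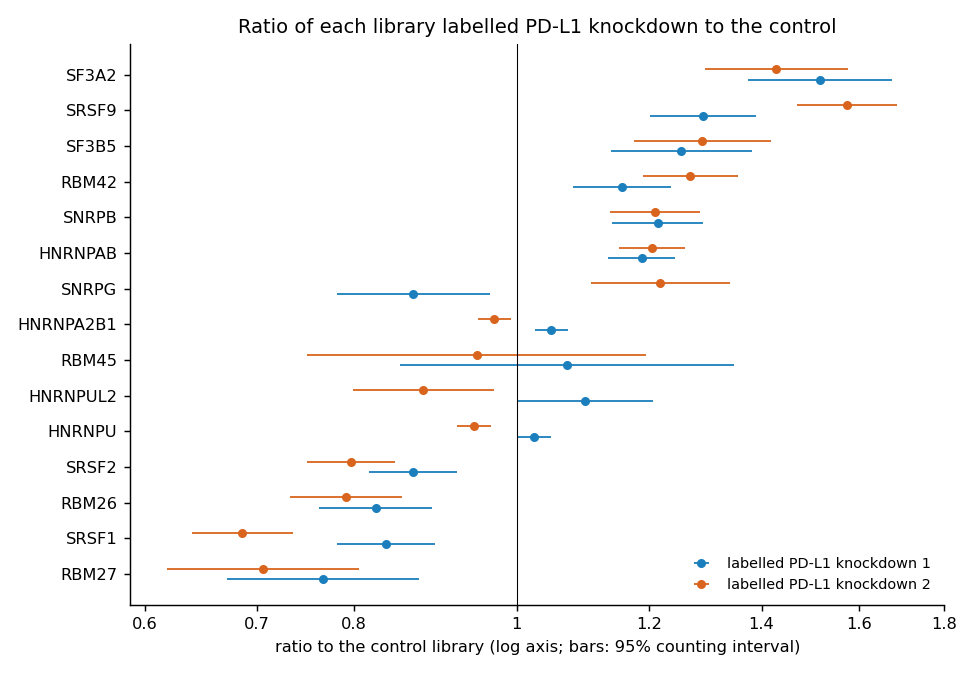
Ratio of each knockdown-labelled library to the control (horizontal log axis) for 15 members, with 95% counting intervals. SF3A2 and SRSF9 lie above 1 in both libraries, RBM27 and SRSF1 lie below 1 in both, and SNRPG lies at 0.868 in one and 1.22 in the other.

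Single libraries differed from each other beyond counting error in many members, as in many genes. The knockdown-labelled library 1 lay above the control in 31 of the 95 members with a mean of at least 100 counts (background 22.2%) and below it in 19 (background 18.4%). The knockdown-labelled library 2 lay above the control in 21 (background 28.6%) and below it in 39 (background 27.6%). Set against each other, the second lay above the first in 7 members (background 18.1%) and below it in 38 (background 19.4%). Its median ratio to the first was 0.958 over these members and 0.995 over all genes counted as well. Genes with the opposite direction in the 2 libraries, each beyond counting error, were SNRPG, HNRNPA2B1, HNRNPU and HNRNPUL2. The share of all genes with such a pattern was not counted, so this list is a description only. In the knockdown-labelled library 1 the lower bounds of HNRNPU (1.0002) and HNRNPUL2 (1.0007) barely passed 1. HNRNPA2B1, which binds many transcripts in the nucleus, had ratios of 1.05 (1.03 to 1.07) and 0.970 (0.948 to 0.992). HNRNPU, a scaffold protein of the nucleus, had 1.02 (1.00 to 1.05) and 0.943 (0.921 to 0.966), and its relative HNRNPUL2 had 1.10 (1.00 to 1.21) and 0.880 (0.799 to 0.969). These comparisons are of libraries, not of conditions, and the intervals cover counting error only. The higher counts of the members give them narrower intervals than most genes have, so their shares and the background are not at equal depth.

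Fold changes followed base composition in these libraries, in members as in all genes. Across 95 well-counted members the correlation of log2 fold change with the GC content of the longest transcript was 0.571, and across 10859 well-counted genes it was 0.628. Genes in one library share that library's base composition and are not replicates. The members are poorer in GC than other genes, with a median of 43.6% against 47.8%. Of the 26 members above 50% GC, 22 had a positive fold change and the median was 0.15, against 0.16 for all such genes. The 69 others had a median of -0.05, against -0.10. SRSF9 stood apart from this trend. Its transcript has 42.1% GC, and genes in the class centred on 43% had a median of -0.09, with the middle 50% between -0.18 and -0.0019. SRSF1, at 41.2% GC, lay below its class, centred on 41%, whose median was -0.13 and lower quartile -0.22. RBM42 at 0.28 lay close to the median of 0.26 in the class centred on 65%.

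The gap between the knockdown-labelled libraries was seen on both sides of 50% GC. Among members at or under 50% GC, 32 of 69 (46.4%) were lower in the second than in the first, against 28.7% of all such genes. Above 50% GC these were 6 of 26 (23.1%) against 7.14%, and 3 members (11.5%) were higher against 31.7%. Beside GC content, fold change ran against the length of the longest transcript, with a correlation on the log of length of -0.438 in members and -0.311 in all genes. With both trends removed, the fold changes of SRSF2 (-0.18), SNRPC (0.12), PRPF39 (-0.04), RBM8A (-0.12), HNRNPLL (-0.04), RBM10 (0.01) and RBM41 (-0.11) came closer to 0. The part of base composition or length in any member's fold change was not tested.

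**Figure D5:**
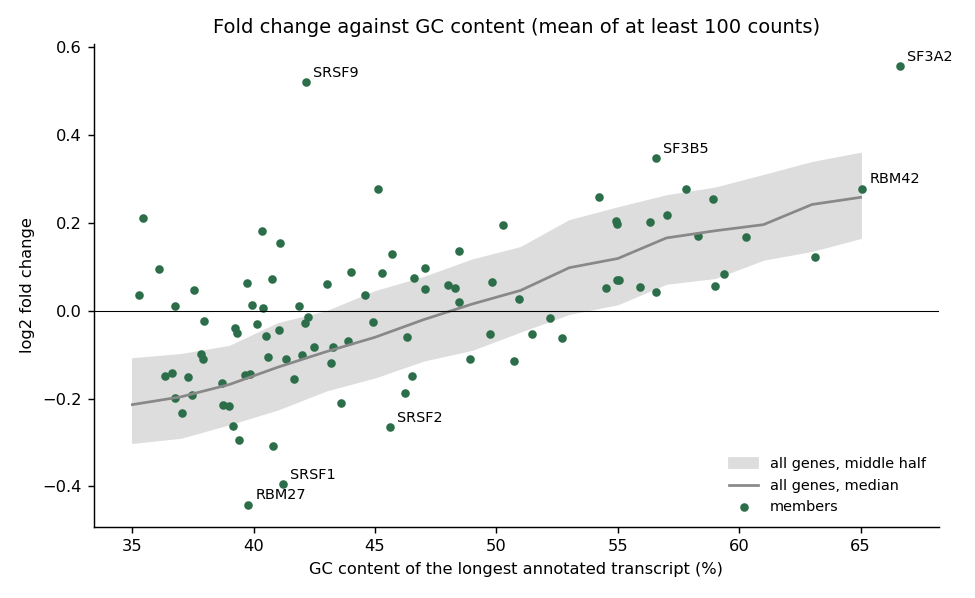
Log2 fold change (vertical axis) of members with a mean of at least 100 counts against the GC content of their longest annotated transcript in percent (horizontal axis). The line is the median and the band the middle 50% of all such genes by GC class. Most members follow the rise of the line from -0.21 at 35% to 0.26 at 65%, and SRSF9 lies far above it.

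Other genes of the splicing pathway, which the naming rule did not take, gave 1 gene past the adjusted threshold. Of 27 other splicing regulators, PTBP3, a relative of the polypyrimidine tract protein PTBP1, fell. It had 6097, 5048 and 3694 counts and a fitted log2 fold change of -0.52 (SE 0.111, edgeR adjusted p = 0.00293), with the control highest and the knockdown-labelled library 2 lowest. The call was lost with the length and GC trends removed (-0.29, edgeR adjusted p = 0.784) and in DESeq2's Wald test (adjusted p = 0.99983). Within that list 3 were lower and 0 higher at an unadjusted p under 0.05 in edgeR's test. Over all tested genes 4.92% were lower and 6.82% higher at that threshold, a background for each list here. In the list 21 of 27 fold changes were negative, with a median of -0.10. Most of its genes are at or under 50% GC, where all well-counted genes also had a median of -0.10. No median of the list was computed with the trends removed. Of 60 other spliceosome proteins, 5 were higher and 1 lower at that threshold, with a median of -0.01. The highest of the 5 was the tri-snRNP protein SART1, with 1420, 1762 and 1993 counts and 0.35, and the lower gene was RNPC3, a protein of the minor spliceosome, with 158, 139 and 89 counts and -0.51. Of 8 kinases that act on SR proteins or the spliceosome, PRPF4B included, CLK4 was lower at that threshold, with 255, 191 and 184 counts and -0.49. Among 16 genes of snRNP assembly SMN1 was higher, with 185, 273 and 322 counts and 0.64. SMN1 and SMN2 are near-identical copies, so this value is uncertain. Of 14 genes of the exon junction complex and nonsense-mediated decay, SMG1, the kinase of UPF1, was lower, with 5830, 4865 and 5308 counts and -0.24. With the length and GC trends removed, the log2 fold changes were 0.19 for SART1, -0.31 for RNPC3, -0.28 for CLK4, 0.71 for SMN1 and -0.11 for SMG1. Except for PTBP3, none of these genes passed edgeR's test at an adjusted p under 0.05.

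Some features were shared that the rule did not use. Each of the 12 SRSF genes has an annotated transcript marked for nonsense-mediated decay (100%), compared with 13 of 22 tested HNRNP genes (59.1%), 51 of 105 tested members (48.6%) and 41.6% of 14169 tested protein-coding genes. The counts are per gene, so the share of such transcripts in these libraries was not measured here. RefSeq promoter windows (GRCh38.p14, 250 bases before to 50 after the start) were found for 97 members, 125 windows in all, and searched on both strands. CCGGAA, the core of sites for ETS factors, was in 34.4% of them, 25.3% of the windows of tested protein-coding genes and 17.2% of all windows. CCAAT was in 45.6%, 33.9% and 34.6%, GGGCGG in 55.2%, 64.8% and 44.9%, and TATAAA in 7.20%, 6.50% and 11.5%. TGCGCA was in 14.4%, 11.3% and 8.24%, and TGACGTCA in 2.40%, 2.60% and 1.85%. A match is a description of the letters only, and no motif contains the letters of another.

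Some members were little counted. Besides the HNRNPCL genes, the untested members were HNRNPUL2-BSCL2, a read-through of neighbouring genes with 2, 1 and 0 counts, and RBM46, with 2, 0 and 1. A further 10 members were tested with a mean under 100 counts, SRSF12, SNRPN and HNRNPA1L2 among them. RBM34, which shares 51.5% of its exonic bases with ARID4B, had the lowest fold change of these, with 28, 21 and 12 counts, with a log2 fold change of -0.80 (SE 0.555, edgeR adjusted p = 0.597). Its ratios to the control were 0.753 and 0.400, the latter below 1 by more than counting error (0.185 to 0.813).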

How the data were processed

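RNA-seq of 3 DU145 libraries was analysed: 1 control and 2 labelled PD-L1 knockdown. Per the methods, poly(A) RNA was primed with random hexamers and sequenced by a service company. The authors deposited raw read counts per gene and FPKM, which were checked to be those counts divided by gene length and 1 constant per library. The submitters' processing notes name Bowtie2 2.0.6, TopHat2 2.0.9, Cufflinks 2.1.1 and Cuffdiff 2.1.1. The counting tool, the strand setting and the build are not given in the sources used here, but all 58735 gene positions match GENCODE release 29 (GRCh38).

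Genes with at least 10 counts in all (19849) were compared in edgeR 4.0.16 under R 4.3.3 (TMM, glmQLFit, glmQLFTest), the knockdown-labelled libraries against the control, with Benjamini-Hochberg adjustment over all of them. The fit has 1 residual degree of freedom, infinite prior degrees of freedom and a common dispersion of 0.00719, and was tested on simulated data. The error of each gene therefore follows the trend over all genes. Ratios between libraries carry exact conditional 95% counting intervals, which hold for counting error alone, as amplified reads with no molecular identifier can be copies of 1 molecule. Alternatives were DESeq2 1.42.0 (size factors, Wald test), library totals, other count filters, single libraries, and offsets removing trends over 20 classes of transcript length and GC content. Members and lists were chosen with earlier results of these data known. Genes were named if called, if among the 5 highest or lowest fold changes or the extremes or most abundant of a role list (mean of at least 100 counts), if SRSF genes, near-identical copies, untested or opposite between libraries, and, for other lists, if extreme at an unadjusted p under 0.05. Subunits of SF3a, SF3b and U2 (SF3A1, SF3A3, SF3B1, SF3B2, SF3B3, SF3B4, SF3B6, SNRPA1, SNRPB2), overlapping genes and RBM34 were added after their values were seen. So were members higher with the trends removed (HNRNPA0, HNRNPD, HNRNPR and SNRPF). Some items are not reported here.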

Additional observations from a re-analysis of the deposited data

How the results depend on the processing

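The number of members past the adjusted threshold was 2 with TMM, DESeq2 size factors, library totals alone and a mean of at least 100 counts. It was 1 when genes with at least 1 count were tested (SRSF9), 0 with DESeq2's Wald test and 0 with the length and GC trends removed. In those last 2 fits, 6 and 5 of all 19849 tested genes passed. DESeq2's Wald test gave 2 higher and 1 lower at an unadjusted p under 0.05 in place of 6 and 4, and the fit without trends gave 10 higher and 1 lower, with a median log2 fold change of 0.0530 in place of 0.01. Leaving out either knockdown-labelled library leaves 1 library against 1, with no test, and a median of -0.02 to 0.02. The fold change of SRSF9 was positive in 9 of 9 settings (0.37 to 0.66) and called in 5 of 7 tests, that of SF3A2 positive in 9 of 9 (0.32 to 0.60) and called in 4 of 7, and that of SRSF1 negative in 9 of 9 (-0.54 to -0.26). With the trends removed, 13 of the 44 members that the naming rule took changed sign: HNRNPC (0.11), HNRNPU (0.21), PRPF4B (0.0333), RBM12 (0.0653), SNRPD1 (0.0802), SRSF3 (0.12), SRSF6 (0.0252), SRSF7 (0.0312), SRSF8 (0.0233), SRSF11 (0.0691) and SRSF12 (0.16) became positive, and PRPF19 (-0.11) and RBM42 (-0.00872) negative. SF3A1 (-0.0022), SF3B4 (-0.0559) and SF3B1 (0.12), named in addition, also changed sign. These changes follow from the construction of that fit, which subtracts the trend. Of 349 values of these 44 members under alternatives, 325 kept their sign, and besides the 13 changes above 4 came without knockdown-labelled library 1 and 7 without library 2. No paired analysis was possible because the control is 1 library. With 1 control library, a difference between the knockdown-labelled libraries and the control cannot be told apart from a peculiarity of the control. Depth limits the 10 tested members with a mean under 100 counts, whose standard errors reach 1.11 (RBM20).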
